A study of Homo sapiens with 30 samples.

Results

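The zinc finger genes with ZNF symbols on human chromosome 19 are described here through the binding of RING1 and RNF2. They were taken as the protein-coding RefSeq genes of that chromosome whose symbol is ZNF followed by a number and at most 1 letter. The rule found 246 genes among the 1451 protein-coding genes of chromosome 19 and the 20037 of the genome. The series holds 30 CUT&RUN libraries of 5 genotypes. The genes were examined in the 4 deposited peak lists of wild-type cells, neural progenitor cells grown as a monolayer in N2/B27/FGF medium and derived from the human embryonic stem cell line H9. All 4 lists therefore stem from 1 cell line with no edited allele. CUT&RUN uses an antibody to tether a nuclease to chromatin and sequences the fragments that it releases. The antibodies were against RING1 and RNF2, with 2 lists for each. The lists fall into pairs, set A and set B, and the labels do not say whether the sets come from separate cultures. RNA was not analysed here, so the label of the cells was not checked against marker genes.

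RING1 and RNF2 are alternative catalytic subunits of Polycomb repressive complex 1 (PRC1), which attaches ubiquitin to histone H2A and is found mainly at CpG islands. Most chromosome 19 ZNF genes arose by tandem duplication and stand in clusters on both arms. Many encode proteins with a KRAB domain and an array of C2H2 fingers. The KRAB domain recruits the corepressor TRIM28 and with it the histone methyltransferase SETDB1, and many such proteins bind transposable elements.

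The promoter DNA of 7 genes is shown as examples with and without peaks. The first 5 carried RNF2 peaks at their starts in both sets. They had the largest lower-of-both-sets RNF2 fold enrichment among the members with such peaks and an entry in the RefSeq promoter table. ZNF208 and ZNF726 carried no peak, and both lie in the cluster beside the centromere described below. They are the first and last members, among those whose promoter window lies at the annotated gene end, in the longest run of neighbours without a RING1 peak in set A. Each sequence is the 250 bases before the gene start in the direction of transcription, from RefSeq on GRCh38.p14, and capitals mark CG pairs.
ZNF536: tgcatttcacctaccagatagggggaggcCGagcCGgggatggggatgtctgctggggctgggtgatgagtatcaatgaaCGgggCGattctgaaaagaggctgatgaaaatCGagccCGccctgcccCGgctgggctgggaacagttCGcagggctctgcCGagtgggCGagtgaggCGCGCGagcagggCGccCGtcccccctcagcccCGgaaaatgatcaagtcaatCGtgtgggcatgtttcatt
ZNF628: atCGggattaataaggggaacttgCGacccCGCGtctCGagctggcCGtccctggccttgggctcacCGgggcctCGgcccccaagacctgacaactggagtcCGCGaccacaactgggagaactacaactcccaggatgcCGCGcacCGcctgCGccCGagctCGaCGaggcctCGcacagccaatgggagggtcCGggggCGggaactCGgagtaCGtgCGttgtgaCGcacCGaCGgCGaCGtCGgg
ZNF526: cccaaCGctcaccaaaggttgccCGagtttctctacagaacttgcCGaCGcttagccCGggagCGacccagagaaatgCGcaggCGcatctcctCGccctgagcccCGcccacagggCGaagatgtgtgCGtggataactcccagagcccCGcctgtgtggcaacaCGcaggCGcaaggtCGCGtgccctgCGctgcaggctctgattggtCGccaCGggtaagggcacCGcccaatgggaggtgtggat
ZNF865: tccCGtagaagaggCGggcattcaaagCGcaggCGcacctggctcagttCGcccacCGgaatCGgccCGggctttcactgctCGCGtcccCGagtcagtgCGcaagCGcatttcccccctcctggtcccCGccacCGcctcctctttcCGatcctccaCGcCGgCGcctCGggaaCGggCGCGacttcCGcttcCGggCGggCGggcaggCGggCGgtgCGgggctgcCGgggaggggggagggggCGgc
ZNF181: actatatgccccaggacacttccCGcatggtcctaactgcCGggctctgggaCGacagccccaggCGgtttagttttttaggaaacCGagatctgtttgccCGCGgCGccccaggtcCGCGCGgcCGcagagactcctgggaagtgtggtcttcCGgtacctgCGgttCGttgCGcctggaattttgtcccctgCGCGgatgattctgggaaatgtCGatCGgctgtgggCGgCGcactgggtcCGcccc
ZNF208: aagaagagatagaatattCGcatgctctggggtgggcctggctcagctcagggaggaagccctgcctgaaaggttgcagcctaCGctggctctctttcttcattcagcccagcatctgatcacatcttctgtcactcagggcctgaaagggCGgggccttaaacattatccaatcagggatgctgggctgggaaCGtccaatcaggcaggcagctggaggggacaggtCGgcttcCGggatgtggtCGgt
ZNF726: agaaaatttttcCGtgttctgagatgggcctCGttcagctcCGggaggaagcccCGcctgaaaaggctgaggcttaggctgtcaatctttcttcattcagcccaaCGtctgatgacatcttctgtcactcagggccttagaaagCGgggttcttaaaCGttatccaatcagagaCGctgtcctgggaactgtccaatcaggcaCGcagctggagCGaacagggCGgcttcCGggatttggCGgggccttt
The 5 bound promoters lie at chr19:30225342-30225591 (ZNF536, plus strand), chr19:55476367-55476616 (ZNF628, plus strand), chr19:42220062-42220311 (ZNF526, plus strand), chr19:55605397-55605646 (ZNF865, plus strand) and chr19:34733993-34734242 (ZNF181, plus strand). The promoters of ZNF208 and ZNF726 lie at chr19:22010944-22011193 (ZNF208, minus strand) and chr19:23914636-23914885 (ZNF726, plus strand). The bound sequences hold between 17 and 32 CG pairs, against 7 in ZNF208 and 13 in ZNF726. This contrast does not hold for all members. ZNF541, with 49 CG pairs in its 300-base window, had no peak. ZNF491, with 9, had peaks in 3 lists. ZNF208 and ZNF726 are copies of one another in this stretch, with 81.3% identical bases over their 300-base promoter windows. None of the other pairs among the 7 shared more than 57.0%.

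A gene was counted as having a peak if at least 1 bp of a peak lay within 2 kb of either annotated gene end. In the RING1 list of set A, 88 of 246 members (35.8%) had a peak, where 45.6% of all protein-coding genes did. In the RNF2 list of set A, 128 members (52.0%) had one, against 56.1% of all genes. In the RNF2 list of set B the count was 31 (12.6%), against 21.7%. No member had a peak in the RING1 list of set B, the shortest list, which reached 1.32% of all genes. The member share was thus below that of all genes in each list. For RNF2 of set A, with all peaks counted, this rested on the cluster beside the centromere described below. The other 209 members stood at 58.4%. With 2 lists per antibody no test over samples can reach a threshold of significance, and genes that are neighbours or copies are not independent, so counts are given without p-values.

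Among the other 1205 chromosome 19 genes, 624 (51.8%) had RING1 and 697 (57.8%) had RNF2 in set A. In set B, 6 (0.498%) had RING1 and 315 (26.1%) had RNF2. Members were lower than these genes by 16.0 percentage points for RING1 of set A and by 13.5 points for RNF2 of set B. The difference for RNF2 of set A was 5.81 points with all peaks counted. In this count it rested on 1 cluster of 37 genes described below. Without that cluster the members stood at 58.4%, 0.531 points above the other genes. With windows of 5 kb the difference over all members was -9.18 points, and with whole gene bodies extended by 2 kb it was -1.73. Without the cluster, the members then stood at 61.2% against 63.7% of the other genes, and at 65.6% against 61.1%. Among peaks with a deposited −log10 q of at least 5, they stood at 12.4% against 26.9%. With only the 659 most significant peaks of each list, the shares were 2.87% and 8.55%. The 263 genes with the same kind of symbol on other chromosomes had RING1 in 134 cases (51.0%) and RNF2 in 165 (62.7%) in set A. RNF2 of set B was at 51 of them (19.4%) and RING1 of set B at 1. Members on chromosome 19 were thus less often marked than their namesakes elsewhere in the 3 lists that reached the members. In the RING1 list of set B the counts, 0 and 1, are too small to set an order.

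The members were above the other gene families that stand in clusters on chromosome 19 in the 3 lists that reached the members (olfactory receptor, KIR, LILR, PSG, CEACAM, KLK and SIGLEC genes). Of 94 such genes, 6 (6.38%) had RING1 and 2 (2.13%) had RNF2 in set A, and 3 (3.19%) had RNF2 in set B. Of 19 chromosome 19 genes with other zinc finger names (ZFP, ZSCAN, ZIM, ZIK and ZNF symbols outside the rule), 8 (42.1%) had RING1 and 11 (57.9%) had RNF2 in set A, and none had a peak in set B.

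**Figure D1:**
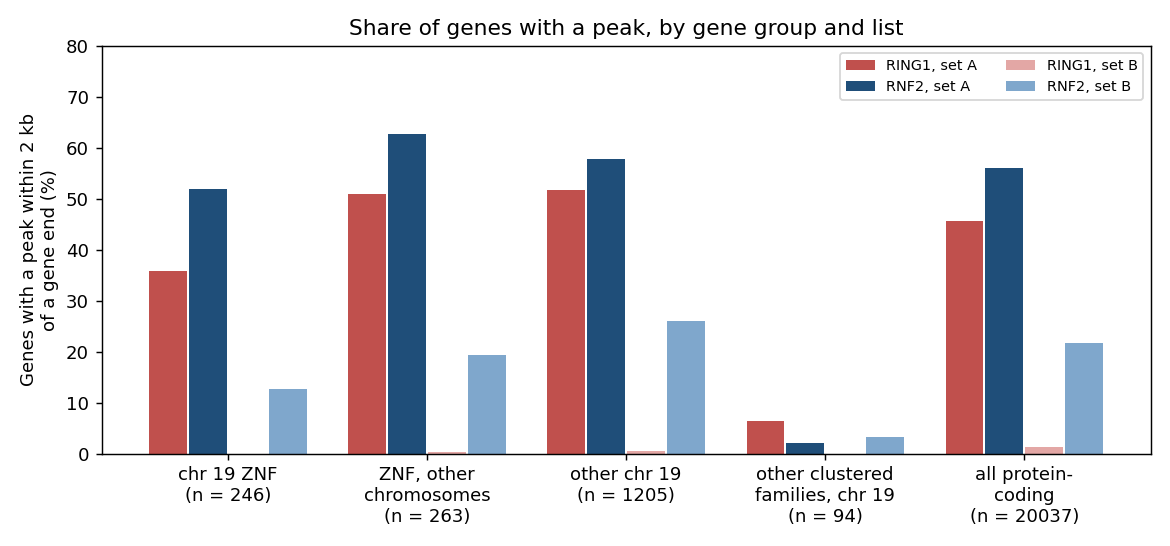
Bars give the percentage of genes with a peak within 2 kb of a gene end, for 5 groups of genes (n below each) and 4 peak lists. Chromosome 19 ZNF genes (35.8%, 52.0%, 0 and 12.6%) lie below ZNF genes elsewhere and other chromosome 19 genes, and above the other clustered families in all lists but RING1 of set B. In that list the counts were 0 members, 1 ZNF gene elsewhere and 6 other chromosome 19 genes.

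The peaks at members had fold enrichments near the middle of each list. The fold values are the authors' own, as the peak caller wrote them for each peak. The peaks at members in set A had a median fold of 4.04 for RING1 (86 peaks, range 3.21 to 8.43) and 4.05 for RNF2 (126 peaks, range 2.96 to 11.8). Peaks at the other chromosome 19 genes had medians of 4.52 and 4.62. In the RNF2 list of set B, the medians were 3.74 for 30 peaks at members and 3.97 for peaks at the other genes. The members' median was thus below that of the other chromosome 19 genes in each of these 3 lists. It was near the median of the whole list, which was 3.99, 4.04 and 3.69 in the same order, and near that of peaks at ZNF genes elsewhere, at 4.08, 4.19 and 3.78.

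Peaks at members were shorter than those at other chromosome 19 genes. In set A their median width was 601 bp with the RING1 antibody and 768 bp with the RNF2 antibody, and in set B the RNF2 median was 558 bp. The middle 50% of RNF2 peaks in set A spanned 452 to 1087 bp. Medians at the other chromosome 19 genes were 750, 1083 and 814 bp. Peaks at ZNF genes on other chromosomes lay between or above these, at 744, 984 and 838 bp. A deposited −log10 q of 5 or more was found for 11 of 86 RING1 peaks (12.8%) and 27 of 126 RNF2 peaks (21.4%) at members in set A. At the other chromosome 19 genes it was found for 168 RING1 peaks (29.6%) and 246 RNF2 peaks (39.4%). In the RNF2 list of set B the order was the other way, with 13.3% of peaks at members (4 of 30) and 8.54% at the others (21). The shares for peaks at all protein-coding genes were 14.9%, 24.4% and 10.4% in these 3 lists, near those of the members, and at ZNF genes elsewhere 10.4% and 24.1% of set A peaks and 3 of 50 RNF2 peaks of set B.

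ZNF536 carried the widest peaks of any member. It encodes a brain-enriched zinc finger protein that represses retinoic-acid-induced neuronal differentiation, and it stands alone just beyond the centromere on the long arm (chr19:30225592-30713586). The RING1 peak of set A was 5877 bp wide with a fold of 5.09. The RNF2 peaks were 6969 bp (fold 6.38) in set A and 6749 bp (fold 6.15) in set B. Each covered the gene start, and each was the widest peak at any member in its list. No other member kept a peak wider than 1501 bp in set B.

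ZNF628 had the highest RING1 fold of all members. Its start lies at chr19:55476617 in the cluster near the long-arm end that also holds ZNF524 and ZNF865. The peak over the start had folds of 8.43 for RING1 (1380 bp) and 8.66 for RNF2 (2173 bp) in set A, and 5.84 for RNF2 in set B (1344 bp). Of all peaks in the respective lists, 98.5%, 97.9% and 95.9% had a lower fold. ZNF628 was thus near the top of each list that reached the members and not only among its own kind.

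ZNF524, whose product binds telomeric DNA, had the highest RNF2 fold of the members. It was 11.8 in set A (1715 bp), with 7.99 for RING1 (2568 bp). Those peaks also lie within 2 kb of an end of the neighbour FIZ1. In set B the RNF2 peak at the same place had a fold of 3.98 (1366 bp). Its strongest set B peak, with a fold of 4.79 (716 bp), was instead shared with its neighbour ZNF865. At ZNF865 the peaks had folds of 5.69 for RING1 (1754 bp) and 7.24 for RNF2 (1812 bp) in set A. Both genes' values therefore come in part from the same peak.

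ZNF324 and ZNF446 also share their strongest peaks, which lie around the short stretch between the end of the first gene and the start of the second, near the long-arm telomere. The shared peak had folds of 6.84 for RING1 (1082 bp) and 8.86 for RNF2 (1469 bp) in set A, and 4.07 for RNF2 in set B (759 bp). At its own start, ZNF324 had a peak of its own in set A, with folds of 4.37 for RING1 (752 bp) and 5.32 for RNF2 (798 bp). No set B peak lay there.

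ZNF526, ZNF181 and ZNF813 had peaks in the same 3 lists, of 362 to 1030 bp. At ZNF526 the folds were 5.33 for RING1 (720 bp) and 5.33 for RNF2 (692 bp) in set A, and 5.10 for RNF2 in set B (558 bp). Each of those peaks is also near an end of DEDD2. At ZNF181 they were 5.29 (362 bp), 5.59 (944 bp) and 4.62 (807 bp) in the same order. ZNF181 shares these peaks with no other gene. ZNF813 was the one among the 10 leading members with a higher RNF2 fold in set B, 4.61 (538 bp), than in set A, 4.03 (1030 bp), beside a RING1 fold of 3.62 (456 bp).

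At ZNF653 the strong peaks were not at its start. ZNF653 encodes a corepressor of the nuclear receptor SF-1 and is transcribed toward the short-arm telomere (chr19:11483429-11505839). Its strongest peaks lay at the far end, with folds of 6.41 for RING1 (2948 bp) and 6.88 for RNF2 (4005 bp) in set A, and 5.47 for RNF2 in set B (577 bp). All 3 peaks also lie near an end of ELAVL3, a neuronal RNA-binding protein gene. At its own start, which is also near an end of ECSIT, set A had RING1 at 4.42 (946 bp) and RNF2 at 5.27 (901 bp), and set B had no peak.

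Other wide or strong peaks varied between sets. ZNF575 had folds of 6.12 for RING1 (1653 bp) and 6.89 for RNF2 (2027 bp) in set A, but 3.68 for RNF2 in set B (557 bp). ZNF784 had 6.46 for RING1 (409 bp) and 5.32 for RNF2 (1251 bp) in set A and no peak in set B. ZNF580 likewise had wide but weak peaks in set A alone, at 3.77 for RING1 (2558 bp) and 4.29 for RNF2 (3298 bp). In contrast, ZNF491 and ZNF20 were weak but present throughout. ZNF491 had folds of 4.18, 4.04 and 3.64, and widths of 1385, 1451 and 1501 bp, for RING1 and RNF2 of set A and RNF2 of set B. ZNF20 had folds of 3.45, 3.77 and 3.34, with widths of 871, 306 and 1082 bp. A strong peak in set A was thus neither needed nor enough for a peak in set B among these genes.

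In set A, RING1 peaks were mostly found where RNF2 was, whereas many RNF2 peaks had no RING1. Both antibodies marked 80 members (32.5%), RNF2 alone 48 (19.5%) and RING1 alone 8 (3.25%). Over all genes these shares were 43.0%, 13.1% and 2.62%, so the share with RING1 alone was near that of all genes. Of the 128 members with RNF2, 62.5% had RING1, compared with 84.8% of the other chromosome 19 genes with RNF2, 74.5% of ZNF genes elsewhere and 76.7% of all genes. Of the 88 members with RING1, 90.9% had RNF2, compared with 94.7% of the other chromosome 19 genes. RNF2 without RING1 thus made up a greater share of the bound members than of the bound other genes. The RNF2 list is longer, at 16263 peaks against 12891, which bears on both groups.

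At the 8 members with RING1 alone in set A, folds ran from 3.21 to 4.38, beside a median of 4.04 over all RING1 peaks at members. Most of the peaks were short, and 1 was above the median width. ZNF554 led with a fold of 4.38 (227 bp). ZNF347 had 4.11 (289 bp) and ZNF224, which encodes a repressor of the aldolase A gene, had 3.67 (257 bp). ZNF274 had 4.04 (247 bp) and ZNF43 had 3.85 (453 bp). ZNF274 is itself known to bring TRIM28 and SETDB1 to the 3′ ends of ZNF genes. The remaining 3 were ZNF682 with 3.52 (1022 bp), ZNF816 with 3.21 (263 bp) and ZNF805 with 3.24 (342 bp). None of the 8 had a peak in set B.

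In both RNF2 lists, 28 members (11.4%) had a peak, against 20.8% of all genes and 305 (25.3%) of the other chromosome 19 genes. RING1 was in both sets at no member, against 1.31% of all genes. Of the 28, 24 also had RING1 in set A. The other 4 were ZNF555, ZNF333, ZNF525 and ZNF550, with set A RNF2 folds of 3.93, 4.63, 4.70 and 4.31 and set B folds of 4.21, 3.71, 3.32 and 3.62. A region of the authors' consolidated file lay within 2 kb of an end of 28 members (11.4%), against 21.0% of all genes. All 28 were members with RNF2 in both sets, as were 4093 of the 4198 genes at such a region over all genes. Among those with RNF2 in both sets was ZNF473, a protein of histone pre-mRNA processing, whose RNF2 folds were 7.09 in set A and 3.35 in set B, beside 4.58 for RING1.

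Members with both antibodies in set A were found again in set B more often than those with RNF2 alone. RNF2 of set B was at 24 of the 80 members with both (30.0%) and at 4 of the 48 with RNF2 alone (8.33%). For the other chromosome 19 genes these shares were 50.3% and 7.55%, over all genes 44.4% and 12.7%, and at ZNF genes elsewhere 36.6% and 11.9%. The members with both antibodies thus reached set B less often than each of these groups, with the smallest gap to ZNF genes elsewhere. The shares after RNF2 alone lay between 7.55% and 12.7% in all groups. In the other direction, 28 of the 31 members of set B (90.3%) had RNF2 in set A. The remaining 3 had a peak in no other list. These were ZNF780A with a fold of 4.33 (404 bp), ZNF675 with 3.54 (395 bp) and ZNF486 with 3.30 (360 bp). Taking all lists, 139 members (56.5%) had a peak in at least 1 and 107 (43.5%) in none, near the 59.4% and 40.6% of all protein-coding genes.

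Along the chromosome, 235 members fell into 11 clusters, and 11 stood outside them. A cluster was a stretch of at least 3 members with less than 500 kb between neighbours. On the short arm, 24 of 83 members had RING1 (28.9%), 37 had RNF2 in set A (44.6%) and 8 had RNF2 in set B (9.64%). On the long arm, the counts were 64 (39.3%), 91 (55.8%) and 23 (14.1%) of 163. Without the cluster beside the centromere, which holds 37 of the short-arm members, the order in set A was the other way: 21 of the 46 remaining short-arm members had RING1 (45.7%), 31 had RNF2 (67.4%) and 6 had RNF2 in set B (13.0%).

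**Figure D2:**
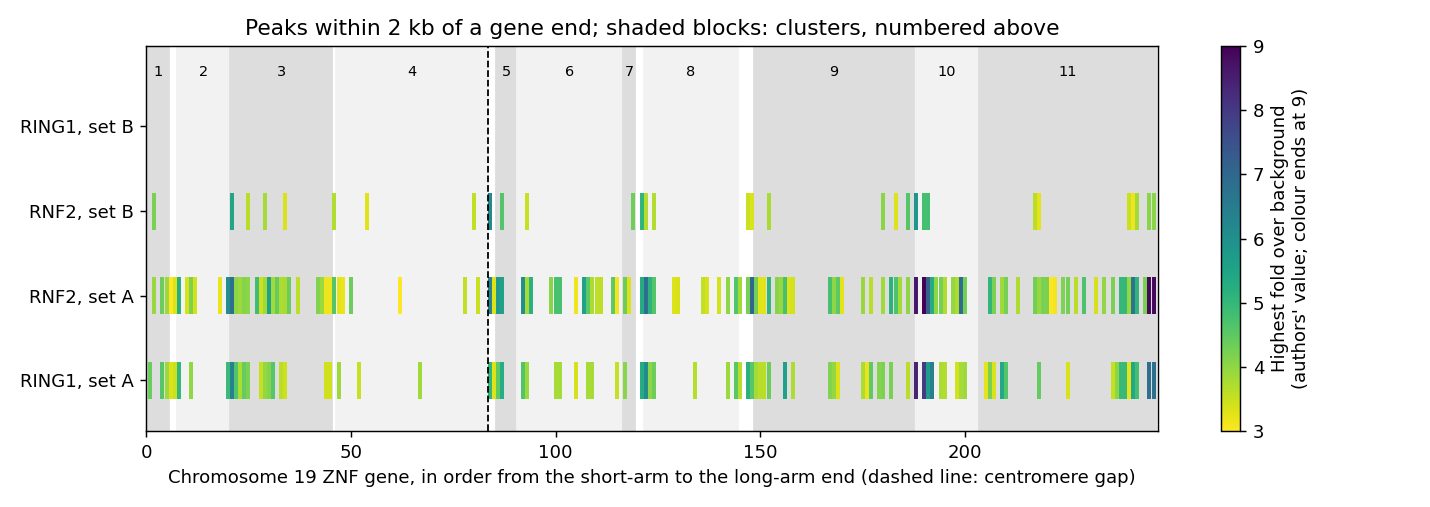
Each of the 246 members is 1 position on the horizontal axis, ordered from the short-arm to the long-arm end; rows are the 4 lists, and a coloured mark is a member with a peak, with colour giving its highest fold (colour scale ends at 9). Cluster 4, left of the dashed centromere line, holds few marks, and the row of RING1 in set B is empty.

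The cluster beside the centromere was the poorest in peaks of set A among the 11. It runs from ZNF101 to ZNF254 (chr19:19668153-24129968), up to the gap of 5.08 Mb without protein-coding genes that holds the centromere. It includes ZNF91, known to repress SVA retrotransposons, and ZNF93, known to repress LINE-1 elements. In set A, 3 of its 37 members had RING1 (8.11%) and 6 had RNF2 (16.2%), and 2 had RNF2 in set B (5.41%). The remaining 209 members had 85 (40.7%), 122 (58.4%) and 29 (13.9%). Neither ZNF91 nor ZNF93 had a peak in any list. A run of 16 neighbours from ZNF208 to ZNF254 had no RING1 peak in set A, and a run of 15 from ZNF738 to ZNF730 had no RNF2 peak there.

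The few peaks of this cluster were weak. RNF2 folds of set A were 3.25 at ZNF101, 3.21 at ZNF14, 4.35 at ZNF253, 2.98 at ZNF708, 3.57 at ZNF724 and 3.47 at ZNF681, with a median width of 346 bp. RING1 folds were 3.87 at ZNF101, 3.52 at ZNF682 and 3.85 at ZNF43. RNF2 of set B was found at ZNF486 and at ZNF675, whose product inhibits signalling through TRAF6. ZNF101, the member farthest from the centromere, was the only gene of the cluster with peaks of both antibodies. No peak at the cluster reached a −log10 q of 5.

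The promoters of this cluster are close copies. Among its 29 members with an entry in the promoter table, the median identity of pairs of promoters was 77.7%, and 282 of 406 pairs were at least 70% identical. Pairs of promoters from different clusters had a median of 53.0%, and none of 20579 reached 70%. Reads from close copies can be hard to place. The sources used here do not say how the authors' alignment treated them, and the part of read placement in the low count was not tested. Outside this cluster, 12 of 18 members (66.7%) whose promoter had a copy at 80% identity or more had RNF2 in set A. Of the 76 whose nearest copy was under 60%, 48 had it (63.2%), and in the classes between, 34 of 65 (52.3%) and 15 of 28 (53.6%) did. For RING1 of set A the counts were 7 of 18 (38.9%) at 80% identity or more and 38 of 76 under 60%, with 30.8% and 42.9% between. Outside the cluster, neither list showed a steady order over these classes. With the cluster included, RNF2 of set A fell from the lowest to the highest identity class, at 63.6%, 53.0%, 48.5% and 35.0% of members. RING1 of set A was at 49.4%, 31.8%, 39.4% and 20.0%, without a steady order. Outside the cluster, the class at 80% identity or more had the highest median count of CG pairs, 25.5. The classes were not matched for that count.

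Among the 8 clusters of more than 5 members, those with the highest RING1 and RNF2 shares of set A lay on different arms. The cluster from ZNF653 to ZNF791 (chr19:11483429-12633834) had RING1 at 13 of 25 members (52.0%) and RNF2 at 19 (76.0%) in set A, and RNF2 at 4 (16.0%) in set B. It contains the longest run of neighbours with RNF2 in set A, 9 members from ZNF439 to ZNF625. The cluster from ZNF628 to ZNF835 (chr19:55476617-56671757) had 9 (56.2%), 11 (68.8%) and 3 (18.8%) of 16. Its RNF2 peaks of set A had a median fold of 4.80 and a median width of 1212 bp, against 4.05 and 768 bp over all members.

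The largest cluster, 43 members from ZNF264 to ZNF446 at the end of the long arm (chr19:57191500-58489533), had RING1 at 16 (37.2%), RNF2 at 26 (60.5%) and RNF2 of set B at 7 (16.3%). Its first member, ZNF264, had no peak. The cluster of 39 from ZNF175 to ZNF331 had 16 (41.0%), 20 (51.3%) and 4 (10.3%). Its last member ZNF331, an imprinted gene, had no peak. The 23 members from ZNF575 to ZNF180 had 6, 10 (43.5%) and 2, and the 26 from ZNF565 to ZNF573 had 8 (30.8%), 14 (53.8%) and 1. The 13 members from ZNF414 to ZNF846 had 3 and 6, with none in set B. The 3 remaining clusters have 3 to 5 members each. In the 5 members from ZNF554 to ZNF77, 3 had RING1 and 3 had RNF2 in set A, and 1 had RNF2 in set B. In the 5 from ZNF302 to ZNF792 the counts were 2, 2 and 1, and in the 3 from ZNF546 to ZNF780A they were 1, 2 and 1.

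Members outside the clusters, alone or with 1 other member within 500 kb, had higher shares than any cluster. Of these 11, 8 had RING1 (72.7%) and 9 had RNF2 (81.8%) in set A, and 5 had RNF2 in set B (45.5%). They include ZNF536 and ZNF526. Other genes that lie inside the clusters were marked less often than the members around them in some clusters and more often in others. RNF2 of set A was at 4 of 16 such genes (25.0%) in the cluster from ZNF175 to ZNF331, at 8 of 26 (30.8%) in the cluster from ZNF628 to ZNF835, and at 3 of 15 (20.0%) in the cluster from ZNF414 to ZNF846. The members' shares there were 51.3%, 68.8% and 46.2%. In the cluster from ZNF575 to ZNF180 it was the other way, with 6 of 10 such genes against 43.5% of members. In the largest cluster, 6 of 13 (46.2%) had RNF2, against 60.5% of members, and 46.2% had RING1, against 37.2%.

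**Figure D3:**
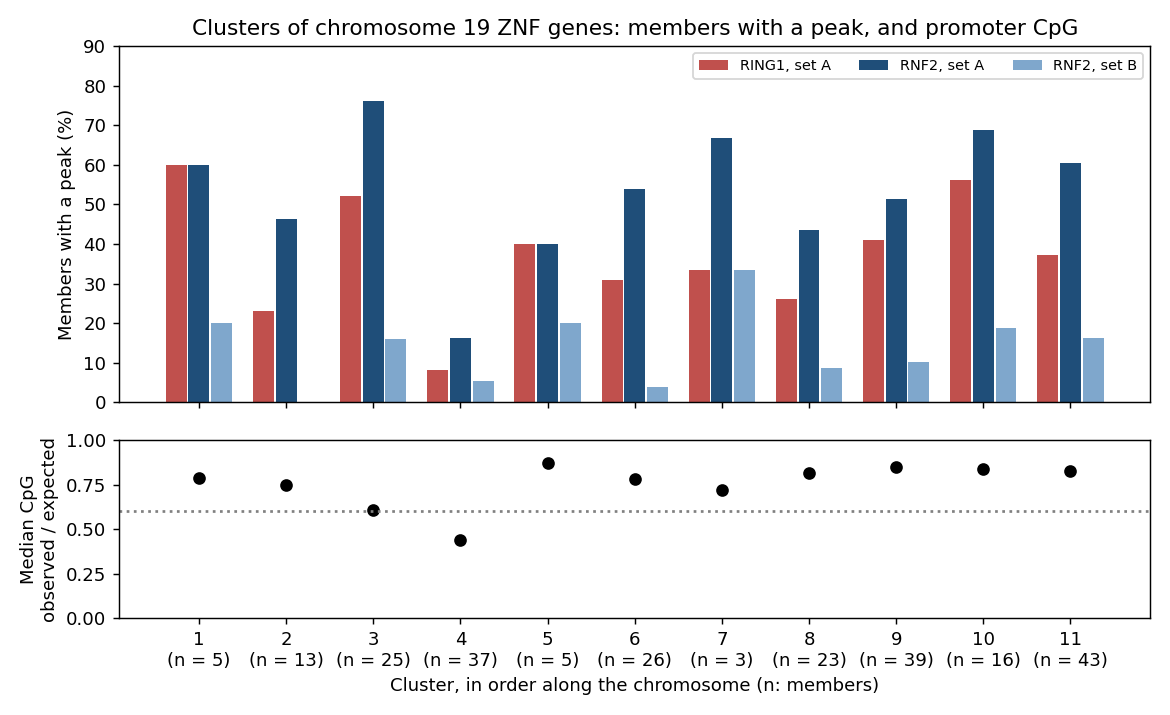
The upper panel gives the percentage of members with a peak in each of the 11 clusters for 3 lists, and the lower panel the median ratio of observed to expected CpG in their promoter windows (dotted line: 0.6). Cluster 4, beside the centromere, has the lowest RING1 and RNF2 shares of set A (8.11% and 16.2%) and the lowest CpG ratio (0.438).

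The cluster with the fewest peaks in set A also had the lowest promoter CpG ratio, but the other clusters did not follow that order. The promoter table gives 300 bases around the start of 216 members, with a median of 20.0 CG pairs and a median observed over expected CpG of 0.763. In the cluster beside the centromere the ratio was 0.438. The next lowest ratio, 0.609, was that of the cluster from ZNF653 to ZNF791, which had the highest RNF2 share of set A (76.0%). The highest ratio, 0.869, was that of the 5 members from ZNF302 to ZNF792, with 40.0% for each antibody of set A. A promoter was called CpG-rich at a ratio of at least 0.6 and a GC content of at least 50%. By this measure 163 members (75.5%) were CpG-rich, as were 58.7% of the other chromosome 19 genes. In the cluster beside the centromere 4 of 29 were.

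Among CpG-rich members, 67 had RING1 (41.1%) and 93 had RNF2 (57.1%) in set A, and 22 had RNF2 in set B (13.5%). Among the 53 others, the counts were 13 (24.5%), 21 (39.6%) and 5 (9.43%). The contrast was far larger among the other chromosome 19 genes, where the shares were 73.6%, 81.7% and 41.1% of 569 CpG-rich genes and 25.8%, 31.2% and 11.2% of 400 others. CpG-rich members thus had peaks less often than the CpG-rich other genes of the whole chromosome in each of the 3 lists. CpG-rich ZNF genes on other chromosomes lay between these groups, at 60.9%, 74.6% and 23.1%. Outside the cluster beside the centromere, RNF2 of set A was at 57.9% of 159 CpG-rich members and at 60.7% of the 28 others, so for that list the contrast within the members did not remain without the cluster. For RING1 of set A the shares there were 42.1% and 35.7%.

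With the count of CG pairs in place of the class, RING1 rose in steps. All promoters of the table were divided by their count into 5 classes of near equal size. RING1 of set A was at 19.8% of 81 members with 8 to 17 CG pairs, at 40.5% of 84 with 18 to 26, at 57.1% of 42 with 27 to 34 and at 6 of 7 with 35 or more. RNF2 of set A was at 42.0%, 58.3% and 59.5% in the first 3 of these classes. At 18 to 26 CG pairs the other chromosome 19 genes had 65.8% for RING1, 76.9% for RNF2 of set A and 38.7% for RNF2 of set B, and the members had 40.5%, 58.3% and 13.1%. At equal CG counts in this range the members were thus the less often marked group. In the class with 8 to 17 CG pairs in members, RNF2 of set A was at 42.0% of members and 43.2% of the other genes, while RING1 was at 19.8% and 36.9% and RNF2 of set B at 8.64% and 15.8%. Every member of the cluster beside the centromere with a promoter entry, except ZNF101, falls in this class. In that cluster 6 of 37 members had RNF2 of set A (16.2%), and the classes were not split by cluster. In the highest class the 7 members had 85.7%, 85.7% and 57.1% for RING1 and RNF2 of set A and RNF2 of set B, and the other genes 78.5%, 87.2% and 39.5%.

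**Figure D4:**
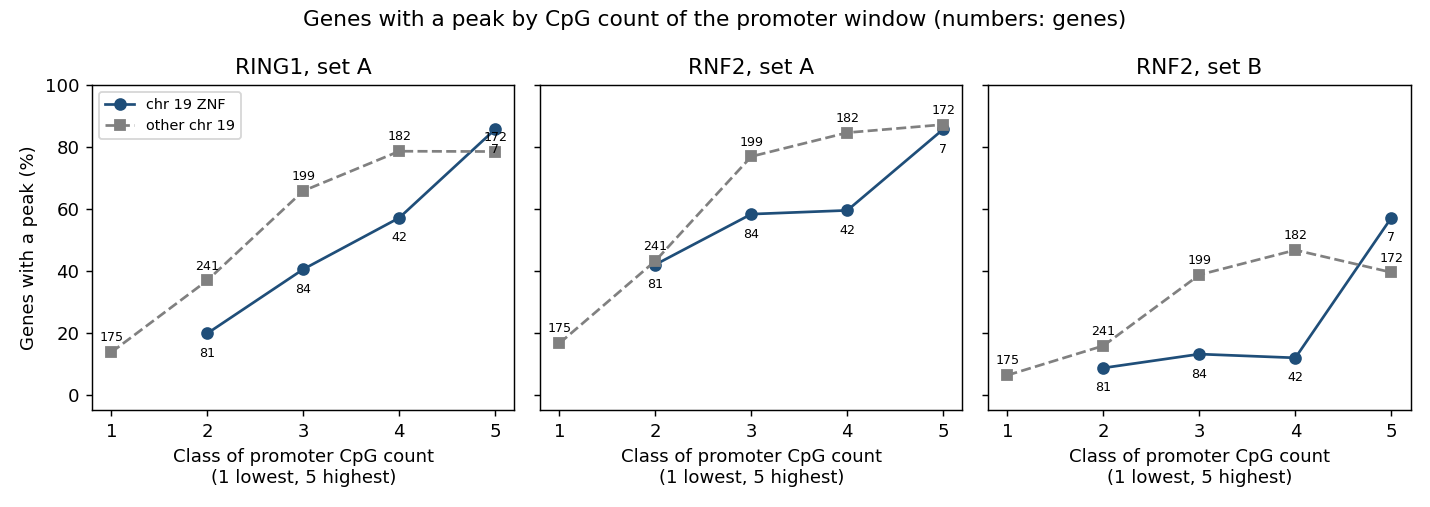
Percentage of genes with a peak, by class of CG count in the 300-base promoter window (1 lowest, 5 highest), for members (circles) and other chromosome 19 genes (squares); numbers beside points are genes, and a class of 2 members is left out. Members lie below the other genes in classes 3 and 4 in all 3 lists, and class 5 holds 7 members.

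Short letter strings of known promoter factors were counted in the same windows on both strands. The ETS core CCGGAAGT was in 45 of 216 members (20.8%), against 4.44% of the other chromosome 19 genes and 6.15% of all genes. It was concentrated by place, with 23 of 40 promoters (57.5%) of the last long-arm cluster, from ZNF264 to ZNF446, and 0 of 29 beside the centromere. Of the members with these letters, 22 had RNF2 in set A (48.9%), beside 114 of all 216 members in the promoter table. Of the other chromosome 19 genes with these letters, 35 of 43 had it (81.4%), beside 590 of 969 in the table. Over all genes it was at 682 of 975 (69.9%), beside 9169 of 15842. The YY1 letters AAGATGGC were in 6.48% of members and 3.86% of all genes. The cyclic AMP response element TGACGTCA was in 3.24% and 2.56%, and the GC box GGGGCGGGG in 24.1% and 22.1%. A match describes the letters and does not show that a factor binds.

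Peaks sat at the starts of the genes. Among 216 members with a known strand, 75 (34.7%) had RING1 and 110 (50.9%) had RNF2 within 2 kb of the start in set A, and 24 (11.1%) had RNF2 there in set B. Start shares were higher over all genes with a known strand, at 44.7%, 55.9% and 20.3%. At ZNF genes on other chromosomes they were 52.8%, 66.4% and 18.2%. Within 2 kb of the far end the members' counts were 8 (3.70%), 12 (5.56%) and 3 (1.39%). Far-end shares were 8.67%, 10.3% and 4.80% over all genes with a known strand, and 17.6%, 20.6% and 8.88% over the other chromosome 19 genes. Of 214 ZNF genes on other chromosomes, 6, 9 (4.21%) and 3 (1.40%) had a far-end peak, close to the members' shares. The far ends of the members, which usually hold the exon of the finger array, were therefore seldom near a peak in these lists, as were those of ZNF genes elsewhere.

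The strongest peak at the start covered the start itself in 61 of 75 members for RING1 (81.3%) and in 89 of 110 for RNF2 (80.9%) in set A, and in 15 of 24 for RNF2 in set B (62.5%). For the other chromosome 19 genes these shares were 63.3%, 75.0% and 56.7%. The median RNF2 peak of set A ran from -318 to 367 bp relative to the start, and the median RING1 peak from -223 to 303 bp. Peaks of the members were thus short blocks centred near the start.

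**Figure D5:**
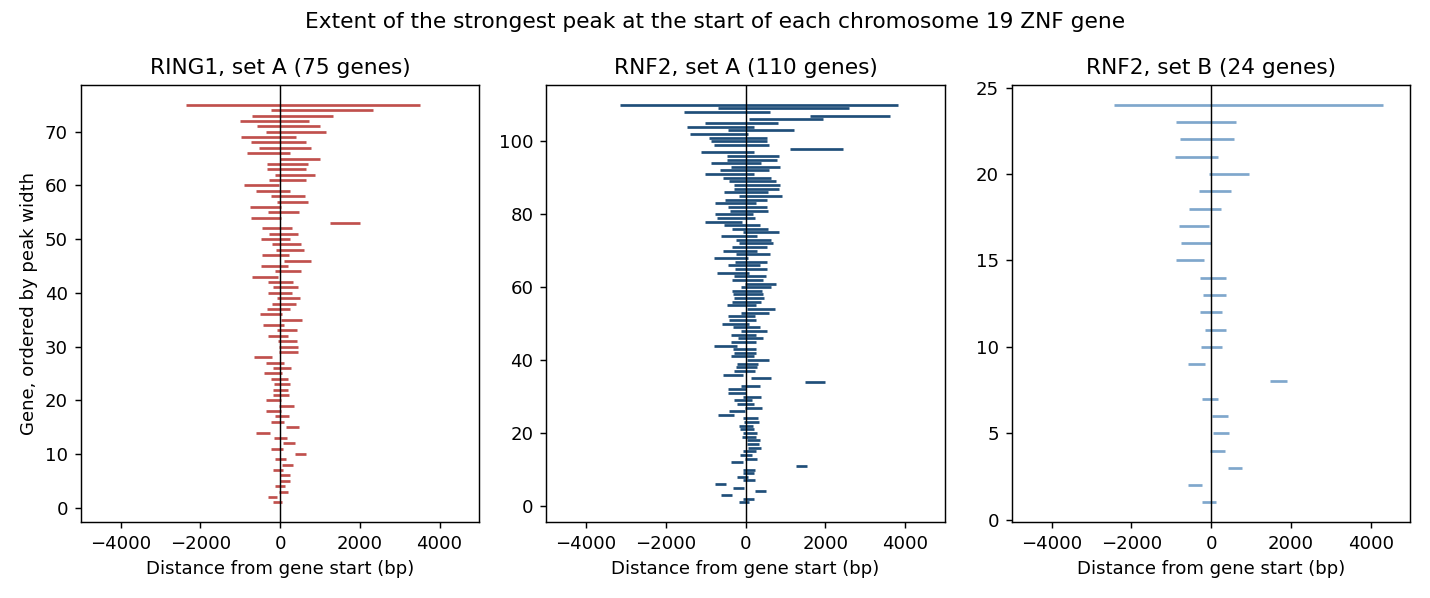
Each horizontal line is the extent of the strongest peak at the start of 1 member, in bp from the gene start (negative: upstream), ordered by width, for the 3 lists with peaks at members. Most lines cross the start (61 of 75, 89 of 110 and 15 of 24), and the widest line in each panel is ZNF536.

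Few peaks were shared. In set A, 9 of the 126 RNF2 peaks at members lay at 2 members each, and 17 lay also near a gene that is no member. For RING1 these numbers were 6 and 12 of 86. In the RNF2 list of set B, the peaks between ZNF524 and ZNF865 and between ZNF324 and ZNF446 were the only ones at 2 members. Of all chromosome 19 peaks, 11.9% of RNF2 and 9.25% of RING1 in set A, and 7.89% of RNF2 in set B, lay at a member.

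ZNF574, chosen after its values were seen, shows what the rule on gene ends leaves out. No peak lay within 2 kb of its annotated ends. Its gene start is at chr19:42068477, and the promoter table lists a further start at chr19:42076166 inside the gene. Peaks of all 4 lists lay at or near that inner start. RING1 of set A was at chr19:42075922-42076227 with a fold of 3.74, and RNF2 of set A at chr19:42075889-42076534 with 5.88. In set B, RING1 was at chr19:42074971-42075940 with 4.10 and RNF2 at chr19:42075923-42076400 with 4.02. ZNF574 was the only member that the RING1 list of set B reached when whole gene bodies or the table's starts were used. Of the 216 members in the table, 25 have their most upstream listed start more than 2 kb from the gene end. Further starts inside a gene, such as that of ZNF574, were not counted.

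The partners of KRAB zinc finger proteins were counted as a list of 24 corepressor genes. In set A, 13 had RING1 (54.2%) and 18 had RNF2 (75.0%), and 6 had RNF2 in set B (25.0%). RING1 of set B was at none of the 24, against 1.32% of all genes. Shares over all genes in the other lists were 45.6%, 56.1% and 21.7%. With 24 genes, the share for RNF2 of set B was near that background. TRIM28, the cofactor of KRAB domains, lies on chromosome 19 beyond the last ZNF cluster (chr19:58544064-58550715) and had folds of 5.66 for RING1 and 5.44 for RNF2 in set A, with no peak in set B. SETDB1 had 3.36 and 4.44 in set A only. Of the 3 heterochromatin protein 1 genes, CBX5 had the highest RNF2 fold of the list. Values were 5.08, 9.44 and 5.03 for CBX5 and 5.28, 6.06 and 4.23 for CBX1, for RING1 and RNF2 of set A and RNF2 of set B. CBX3 had 3.94 and 4.48 in set A and no peak in set B. MORC2, a partner of the HUSH silencing complex, had 4.62, 4.21 and 3.79. ATRX, DAXX, EHMT2, PPHLN1, MPHOSPH8 and UHRF1 had no peak in any list.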

How the data were processed

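Per the labels, the CUT&RUN libraries came from an EpiCypher CUTANA kit and were read on an Illumina NextSeq. The submitters' processing notes list MACS2 2.2.9.1, BWA 0.7.17, Picard 2.8.1, deepTools 3.5.2, SAMtools 1.9 and bedtools 2.30.0, and the build hg38. The sources used here give neither their options, nor the control used for peak calling, nor the read depth per library, so a gene without a peak is not shown to be unbound. The RING1 lists hold 12891 (set A) and 659 (set B) peaks, and the RNF2 lists 16263 (set A) and 5901 (set B). Each carries 1 antibody and 1 set in its name, and was taken as called per library. The deposited fold of each peak is a linear ratio over background, as written by the peak caller. The deposited significance is −log10 of the q-value. The 4255 consolidated regions carry no measurement.

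Gene positions came from RefSeq on GRCh38.p14. Strand and promoter sequence came from the RefSeq promoter table, which holds 216 members. Its strands were checked on overlapping windows of opposite strand, of which 2700 of 2700 pairs were reverse complements. Protein features were not analysed here. Where a gene had several peaks, the highest fold was used, and the width printed is that of the same peak. Promoter identity came from global alignment of 300-base windows and was added after seeing the data. Members, gene lists and named genes were chosen with earlier results of these data known. Named genes were the 10 members with the largest lower-of-both-sets RNF2 fold, the 5 with the highest RING1 fold in set A, the 5 widest RNF2 peaks per set, up to 5 with RING1 but no RNF2 in set A, those found only in set B, and the ends of the largest cluster. Genes with known functions in each cluster, the 4 members with RNF2 in both sets but no RING1, and ZNF574 were named after their values were seen. The overlap step was tested on simulated data. Scripts ran in Python 3.11.15 with matplotlib 3.10.9, pandas 2.3.3, numpy 2.4.6 and SciPy 1.17.1.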

Additional observations from a re-analysis of the deposited data

How the results depend on the processing

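Counts of members, share differences from other chromosome 19 genes, median widths and folds were recomputed under other settings. Of the recomputed values, 105 kept their direction and stayed within 1.5 times a count or within the 95% interval of a share or median, 32 moved and 5 reversed. Among the 105, the share difference for RNF2 of set A still ranged from -10.7 to -1.73 and that for RING1 of set A from -19.5 to -9.83. Windows of 1 kb and gene starts alone moved no count, difference or median beyond those limits. An overlap of at least 200 bp and each peak given to its nearest gene, run for counts and differences, did not either. Cluster gaps of 200 kb and 1 Mb gave 16 and 10 clusters in place of 11.

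The share difference for RNF2 of set A reversed from -5.81 points to 2.55 with the starts of the promoter table and to 0.531 without the cluster beside the centromere, both chosen after seeing the data. Against the other clustered families the differences were 29.4 (RING1 of set A), 49.9 (RNF2 of set A) and 9.41 points (RNF2 of set B), since those families have few peaks. Against ZNF genes elsewhere, RNF2 of set B differed by -6.79.

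A −log10 q of at least 5 keeps fewer peaks by construction. It left 12 members with RING1 and 26 with RNF2 in set A, 4 with RNF2 in set B and 4 in both sets. Differences became -16.3 for RNF2 of set A and -1.28 for set B. Median widths became 1082, 1094 and 960 bp, and folds 6.12, 5.60 and 5.66, for RING1 and RNF2 of set A and RNF2 of set B. With only the 659 most significant peaks of every list, 5, 6 and 6 members remained counted in these lists, and 3 had RNF2 in both sets. Differences were -7.59 for RING1 of set A and -2.46 for RNF2 of set B. Widths were 1231 and 1715 bp in set A, and folds 7.42, 8.66 and 5.47.

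For RING1 of set B, 1 member had a peak with gene bodies and 1 with the promoter table's starts, and 1 had RING1 in both sets with gene bodies. Its differences were -0.747 with windows of 5 kb, -0.506 with gene bodies and -1.33 against all other genes. With either set left out, members counted for RING1 ranged from 0 to 88 and for RNF2 from 31 to 128. The cause of these changes was not tested beyond the construction named.

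No paired analysis was possible because the labels tie neither set to a replicate number and the results come from no test. RING1 and RNF2 were set side by side within set A as counts. The set B lists hold fewer peaks, 659 for RING1 and 5901 for RNF2, against 12891 and 16263 in set A. Depth was not given, so the low counts of set B cannot be told apart from the effect of a shallower library.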
